A study of Homo sapiens with 30 samples.

Results

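The response of HCT116 cells to the lower of 2 Omomyc doses was measured by RNA-Seq after 6 h and compared with untreated cells of the same line. HCT116 is an established human colorectal carcinoma line, described in the labels as having stabilized MYC, and both groups carry that background. The treated group was given Omomyc with ProteoJuice, a protein transfection reagent, in Opti-MEM. The study's methods describe adding serum-containing medium during longer incubations, and 6 h is past the time they set for this. The dose of the treated group is 2 μM in the labels and 2.5 μM in the study's methods, so it is called the lower dose here. The untreated group has no time point in the labels, and the sources do not say whether it received the reagent and the same medium. Effects of Omomyc and of reagent, medium or handling therefore cannot be told apart in this comparison. The members were the 3 lower-dose 6 h libraries and the 3 untreated libraries, 6 of the 30 libraries of the series, and every gene with a mean of at least 0.5 RPKM (read counts scaled to transcript length and library size) over those 6. This rule kept 14550 of the 57992 genes in the table. TMEM150C, with a mean of 0.50018 RPKM, and ALOX12B, with 0.50028, were just inside it, and SOX18, with 0.49997, and FOXD3-AS1, with 0.49975, were just outside. The replicates are not stated to be separate cultures, so p-values measure only the spread between these libraries, which may be technical.

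MYC is a basic helix-loop-helix leucine zipper transcription factor that binds E box sequences in DNA as a heterodimer with MAX. MAX also pairs with the MXD proteins and MNT, which repress. Omomyc is a mutant of the MYC dimerization domain that forms homodimers and binds both MYC and MAX. Immediate early genes such as the FOS, JUN, EGR and NR4A families are transcribed within minutes of growth factor or stress signals, without new protein synthesis, while ATF4 drives genes for amino acid supply when amino acids are short.

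RNA was extracted with an RNeasy kit, depleted of rRNA and sequenced from a stranded total RNA library. Sums of RPKM were 742468 to 836899 in the treated libraries and 593633 to 660769 in the untreated libraries, without overlap. Mitochondrial genes held 1.79 to 3.12% of the sum in treated and 0.401 to 0.520% in untreated libraries, and genes of small RNA classes held 35.4 to 40.5% against 22.4 to 29.8%. Nuclear protein-coding genes summed to 431494 to 456749 against 437498 to 442985, which overlap. Correlations of log2 values were 0.988 to 0.991 within the treated group, 0.993 to 0.994 within the untreated group and 0.965 to 0.971 between them. The identity of the cells was checked on marker lists. Of 12 colon epithelial markers, 9 passed the filter, and EPCAM, an epithelial adhesion molecule, was at 142 ± 21.8 RPKM (SD, n = 3) in treated and 104 ± 4.53 RPKM in untreated cells. By the test described below, 4 of the 9 were higher and 1, the cadherin gene CDH1, was lower, with a log2 fold change of -0.33 (limma adjusted p = 0.04998, just under the threshold). With an equal sum, 1 was higher and 2 lower. Only CD22 and HLA-DRA of 10 B cell markers passed, and the list summed to 2.64 to 3.50 RPKM in treated and 5.01 to 5.34 RPKM in untreated libraries. Of 8 stromal and endothelial markers, COL1A1 alone passed, and that list summed to 3.19 to 5.59 against 3.07 to 3.25 RPKM. In bulk RNA, fewer cells of a kind and less RNA per cell cannot be told apart.

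At 6 h, 6884 of 14550 genes (47.3%) differed between the groups by limma on log2(RPKM + 0.5) at a Benjamini-Hochberg adjusted p under 0.05. Of these, 2251 (15.5% of genes tested) were higher in treated cells and 4633 (31.8%) were lower. The counts of the gene lists below are to be read beside these shares of all genes. Every treated library lay on one side of every untreated library for 8411 genes (57.8%). A change of at least 2-fold, which is 1 on the log2 scale, was seen for 482 of the genes past the threshold, 246 higher and 236 lower. The larger rises were in small RNA genes, which were 5 of the 12 largest, immediate early genes, secreted matrix and cytokine genes, and mitochondrial mRNAs, and the larger falls were in the ID genes, SAT1 and genes of amino acid supply. The median log2 fold change over all genes was -0.12, and the direction of small changes depended on scaling: 32.7% of the called genes were higher as deposited, 51.9% after median-ratio scaling, 45.3% after quantile normalization, 53.1% with a trend on transcript length removed, 52.4% with a trend on GC content removed, and 6.85% with every library set to an equal sum. The equal sum placed the median at -0.42 and median-ratio scaling placed it at 0.00075. Removing the length or GC trend also recentred each library, with medians of 0.0045 and 0.0067. The trend and the recentring therefore cannot be told apart in those 2 shares. Length was that of all exons of a gene combined. Short transcripts moved higher than long ones as a group, with a median of 0.03 and 28.5% called higher among the 2440 protein-coding genes of shortest exon length against -0.26 and 6.27% among the 2440 of longest. The part of transcript length in the small changes was not tested gene by gene.

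**Figure D1:**
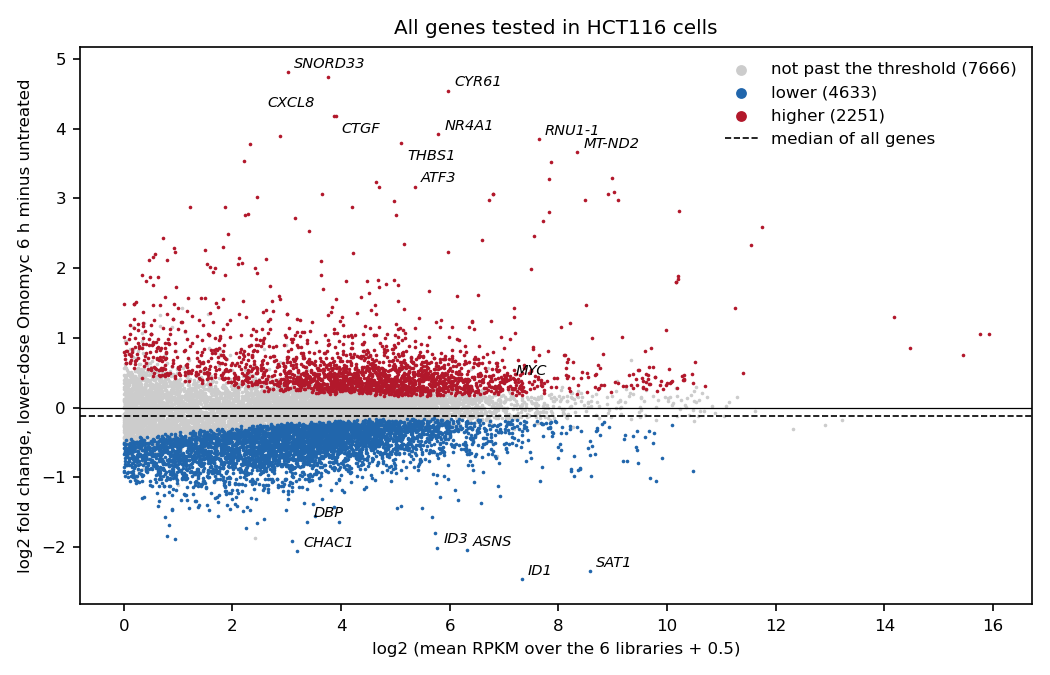
Log2 fold change of lower-dose Omomyc at 6 h over untreated HCT116 cells (vertical axis, on the log2(RPKM + 0.5) scale) against mean expression over the 6 libraries (horizontal axis, log2 scale), 1 point per gene for 14550 genes. The 2251 genes called higher and 4633 called lower are coloured, 7666 are not past the threshold, and the named genes at the edges include CYR61 and NR4A1 above and ID1 and SAT1 below. SNORD33, listed at 0 in untreated cells, is drawn at a fitted value that depends on the pseudocount, and the split between higher and lower genes changes with scaling as given in the text.

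The genes of the EGR and NR4A families were higher throughout. EGR proteins are zinc finger factors and NR4A proteins are orphan nuclear receptors, both encoded by immediate early genes. NR4A1 was at 94.99, 86.2 and 129 RPKM in the 3 treated libraries and at 5.34, 7.28 and 6.31 RPKM in the 3 untreated libraries. The groups were far apart, and the log2 fold change was 3.92 (SE 0.150, limma adjusted p = 8.73e-07). EGR2, a regulator of differentiation in neural and immune cells, was at 8.47, 6.42 and 8.20 RPKM after treatment and at 0.708, 0.941 and 0.491 RPKM without it, a log2 fold change of 2.76 (SE 0.165, limma adjusted p = 8.64e-06). EGR1 rose from 21.8, 20.3 and 21.5 RPKM to 84.6, 94.8 and 129 RPKM, a log2 fold change of 2.23. All 6 measured members of these families passed the test, against 15.5% of all genes, with a list median of 2.95 beside -0.12 for all genes. The others were NR4A3 at 3.78, EGR3 at 3.02 and NR4A2 at 2.88 on the log2 scale.

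The promoter of EGR1 is shown with that of SRF because both rose and both hold CArG boxes, the sequence read by serum response factor. Sequences are from RefSeq on GRCh38.p14, 5′ to 3′ on the strand of the gene, with the boxes in capitals. The EGR1 stretch is chr5:138465341-138465460 on the plus strand, from 138 to 19 bases before the start, and the SRF stretch is chr6:43171149-43171268 on the plus strand, from 120 bases before the start to the last base before it.
EGR1: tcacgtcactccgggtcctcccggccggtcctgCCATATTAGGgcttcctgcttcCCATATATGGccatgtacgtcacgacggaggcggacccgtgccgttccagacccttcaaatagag
SRF: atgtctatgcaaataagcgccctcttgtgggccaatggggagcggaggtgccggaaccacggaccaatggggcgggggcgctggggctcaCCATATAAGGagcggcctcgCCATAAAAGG
Each stretch holds 2 boxes. A match describes these letters and does not show that a factor was bound.

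AP-1 genes, which encode the FOS, JUN and related dimers, rose in 10 of 11 measured cases with none lower and a median of 1.26. ATF3, a stress-induced partner of JUN, was at 73.3, 69.0 and 78.0 RPKM in treated and 7.61, 7.73 and 7.81 RPKM in untreated libraries, and its log2 fold change of 3.17 (SE 0.0682) had a limma adjusted p of 2.83e-08. JUN went from 7.24, 7.89 and 8.18 RPKM to 52.8, 56.0 and 57.3 RPKM, a change of 2.76. Both genes were separated by several times the spread of either group. FOSL1 and MAFF rose by 2.34 and 1.90 on the log2 scale. FOS was the exception, at 106, 129.8 and 136 RPKM against 106, 115 and 98.4 RPKM, with overlapping groups, a log2 fold change of 0.21 and a limma adjusted p of 0.112. Its value was -0.13 when libraries were set to an equal sum, and it passed the threshold after median-ratio scaling, with the length or GC trend removed, and without treated replicate 1. Of 21 other immediate early genes, 17 were higher, and IER5 alone was lower, with a median of 0.73.

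Feedback genes of the ERK pathway were split, with 6 of 20 higher, 6 lower and a median of 0.02. Over all genes, 15.5% were higher and 31.8% lower. With an equal sum, 4 of the list were higher and 10 lower. DUSP5, a nuclear phosphatase of ERK, stood at 164, 145 and 175 RPKM in treated libraries and 30.4, 28.8 and 30.8 RPKM in untreated ones, a log2 fold change of 2.40 (SE 0.0774, limma adjusted p = 3.06e-07). The phosphatase genes DUSP1 and DUSP2 rose by 1.83 and 1.73, whereas DUSP6, the cytoplasmic ERK phosphatase, had a log2 fold change of -0.60. DUSP genes of one family thus moved in opposite directions. DUSP4, DUSP7 and IER3 were also higher. The other lower members were ETV1, with a log2 fold change of -1.02, ETV4, ETV5, SPRY1 and SPRY4.

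The largest rise among protein-coding genes was in CYR61, also known as CCN1, a secreted matrix protein. It was at 129, 82.0 and 147 RPKM in the treated libraries and at 4.43, 4.44 and 4.60 RPKM in the untreated libraries. The untreated values lay within a narrow range and the treated values were more than an order of magnitude above them, with a log2 fold change of 4.54 (SE 0.176, limma adjusted p = 8.73e-07). CTGF, or CCN2, of the same family, was at 27.9, 21.8 and 33.6 RPKM against 1.39, 0.711 and 1.10 RPKM, a change of 4.18 (SE 0.187, limma adjusted p = 1.8e-06). THBS1, which encodes the matrix glycoprotein thrombospondin 1, was at 77.6, 47.7 and 65.8 RPKM against 4.48, 3.71 and 4.02 RPKM, a change of 3.79. CYR61 and CTGF belong to the list of genes responsive to YAP and TEAD, in which 8 of 15 measured members were higher and 2, AMOTL1 and PTPN14, were lower, with a median of 0.40. With an equal sum the same list had 4 higher, 5 lower and a median of 0.07. F3, which encodes tissue factor, rose by 1.37, and CRIM1, WWC1, LATS2, AJUBA and ARHGEF17 were not past the threshold.

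The CTGF promoter is shown for its pair of TEAD sites, GGAATG, in capitals. It is chr6:131951405-131951524 on the minus strand of GRCh38.p14 (RefSeq), from 152 to 33 bases before the start.
CTGF: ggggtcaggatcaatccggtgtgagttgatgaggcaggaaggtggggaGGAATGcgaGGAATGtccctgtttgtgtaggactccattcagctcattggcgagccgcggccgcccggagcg

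SRF itself, the factor that reads CArG boxes, was at 27.8, 27.9 and 27.8 RPKM in treated and 10.5, 10.5 and 10.7 RPKM in untreated libraries, with very little spread in either group and a log2 fold change of 1.36 (SE 0.0632, limma adjusted p = 1.93e-06). Of 16 genes of the SRF and actin list, 8 were higher and none lower, with a median of 0.27; with an equal sum 5 were higher and 4 lower, with a median of -0.05. The actin-binding proteins TAGLN, MYL9 and FHL2 rose by 2.13, 1.25 and 1.11 on the log2 scale. VCL, ACTG1 and ACTN1 were not past the threshold.

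**Figure D2:**
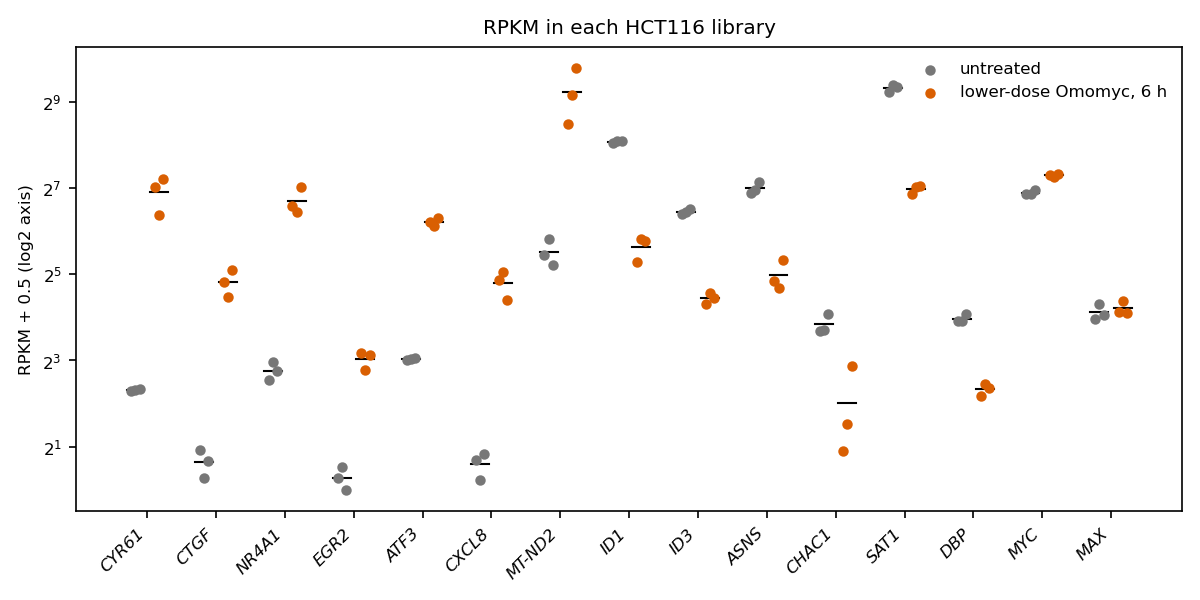
RPKM + 0.5 on a log2 axis in each of the 3 treated and 3 untreated libraries for 15 genes, with bars at group means. CYR61, CTGF, NR4A1, EGR2, ATF3, CXCL8 and MT-ND2 are higher and ID1, ID3, ASNS, CHAC1, SAT1 and DBP lower in every treated library, while the MAX groups overlap.

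Cytokine genes of the NF-kB list were higher. CXCL8, the neutrophil chemokine IL-8, was at 28.5, 32.6 and 20.7 RPKM in treated libraries and 1.12, 0.671 and 1.28 RPKM in untreated libraries, with a log2 fold change of 4.19 (SE 0.190, limma adjusted p = 1.89e-06). Of 16 measured members, 10 were higher and TNFAIP2 was lower, with a median of 0.74. The chemokines CXCL2 and CXCL1 rose by 2.30 and 2.06, and the pathway's own inhibitors TNFAIP3 and NFKBIA rose by 1.26 and 1.04. NFKB1, NFKB2, NFKBIZ, ICAM1 and IL11 were not past the threshold, and IL6, IL1A, IL1B, TNF, CCL20 and TRAF1 were below the filter.

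The CXCL8 and CXCL1 promoters are shown because these rises came with an AP-1 site (TGACTCA) in the one and an NF-kB site in the other, each in capitals. NF-kB sites were searched as GGGRNWYYCC on both strands. There R is A or G, W is A or T, Y is C or T and N is any base. A near match, such as tggaatttcc in the CXCL8 stretch, is not marked, so lower case does not show that a site is absent. CXCL8 is chr4:73740375-73740494, from 194 to 75 bases before the start, and CXCL1 is chr4:73869260-73869379, from 133 to 14 bases before it, both on the plus strand of GRCh38.p14 (RefSeq). In CXCL1 the site matched on both strands, with the matches overlapping.
CXCL8: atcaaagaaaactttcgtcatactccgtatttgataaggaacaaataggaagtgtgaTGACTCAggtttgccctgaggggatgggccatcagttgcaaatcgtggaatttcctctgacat
CXCL1: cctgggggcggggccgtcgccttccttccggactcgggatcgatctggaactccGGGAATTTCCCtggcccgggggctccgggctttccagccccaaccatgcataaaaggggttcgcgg

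The ID genes, which encode helix-loop-helix proteins without a DNA-binding region, were lower. ID1 was at 38.3, 55.7 and 54.2 RPKM in treated libraries and 264, 274 and 271 RPKM in untreated libraries, and its log2 fold change was -2.46 (SE 0.125, limma adjusted p = 3.62e-06). ID3, of the same family, was at 19.4, 23.0 and 21.5 RPKM against 83.4, 86.5 and 91.3 RPKM, a change of -2.01 (SE 0.0756, limma adjusted p = 8.73e-07). ID2 had a log2 fold change of -1.45, so all 3 measured ID genes were lower, against 31.8% of all genes. In none did the groups overlap, which also held for 57.8% of all genes. ID genes are targets of BMP signaling, and of 11 other genes of BMP and TGF-beta feedback 6 were lower, with a median of -0.33. SMAD6 and SMAD9 had log2 fold changes of -0.94 and -0.88.

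SAT1, the enzyme that acetylates spermidine and spermine for export and breakdown, was at 117, 129 and 131 RPKM in treated libraries and 603, 667 and 650.2 RPKM in untreated libraries. Its log2 fold change was -2.34 (SE 0.0731, limma adjusted p = 3.01e-07). ODC1, the enzyme of the first step of polyamine synthesis, was at 372, 388 and 338 RPKM against 284, 295 and 301 RPKM, a log2 fold change of 0.32 (limma adjusted p = 0.00571) that was -0.02 with an equal sum.

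Genes of amino acid supply were lower. ASNS, asparagine synthetase, was at 28.3, 25.2 and 39.6 RPKM after treatment and at 118, 123 and 141 RPKM without it, with no overlap and a log2 fold change of -2.04 (SE 0.146, limma adjusted p = 2.17e-05). PHGDH, the first enzyme of serine synthesis, was at 24.1, 22.6 and 28.8 RPKM against 72.9, 73.4 and 80.6 RPKM, a change of -1.57. Of 18 ATF4-responsive amino acid genes, 12 were lower and none was higher, with a median of -0.47. The cystine transporter SLC7A11 had a log2 fold change of -1.42, and the transporters SLC7A5, SLC3A2, SLC7A1, SLC1A5 and SLC38A2 were not past the threshold. ATF4 itself was at 192, 231 and 220.5 RPKM against 287, 308 and 333 RPKM, a log2 fold change of -0.53. CHAC1, which breaks down glutathione, was at 1.38, 2.37 and 6.82 RPKM against 12.3, 12.5 and 16.5 RPKM, with a wide spread among treated libraries, a change of -2.06 and a limma adjusted p of 0.00258. Of 12 stress regulators linked to ATF4, 8 were lower, while ATF5 and the phosphatase subunit PPP1R15A rose by 1.27 and 1.42.

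Cytosolic aminoacyl-tRNA synthetases, which charge tRNAs with amino acids, were lower in 14 of 20 cases and higher in none, with a median of -0.54. AARS, EPRS and SARS had log2 fold changes of -1.33, -0.83 and -0.82. FARSA, FARSB, HARS, KARS, RARS and WARS were not past the threshold. The promoters of ASNS, CHAC1 and AARS are shown for their ATF4 site, searched as TGATGNAA on both strands, with the match in capitals. ASNS is chr7:97872413-97872532 on the minus strand, from 124 to 5 bases before the start, CHAC1 is chr15:40953221-40953340 on the plus strand, from 250 to 131 bases before it, and AARS is chr16:70289630-70289749 on the minus strand, from 243 to 124 bases before it, all on GRCh38.p14 (RefSeq). The promoter of ATF3, which rose, also holds a match to this site.
ASNS: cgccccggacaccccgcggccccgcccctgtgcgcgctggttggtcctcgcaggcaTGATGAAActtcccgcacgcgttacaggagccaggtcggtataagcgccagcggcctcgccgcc
CHAC1: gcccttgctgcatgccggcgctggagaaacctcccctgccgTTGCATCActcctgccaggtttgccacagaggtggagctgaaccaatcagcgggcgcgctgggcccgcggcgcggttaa
AARS: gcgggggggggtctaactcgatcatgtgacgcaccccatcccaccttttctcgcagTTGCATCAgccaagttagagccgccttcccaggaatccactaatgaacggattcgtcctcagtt

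**Figure D3:**
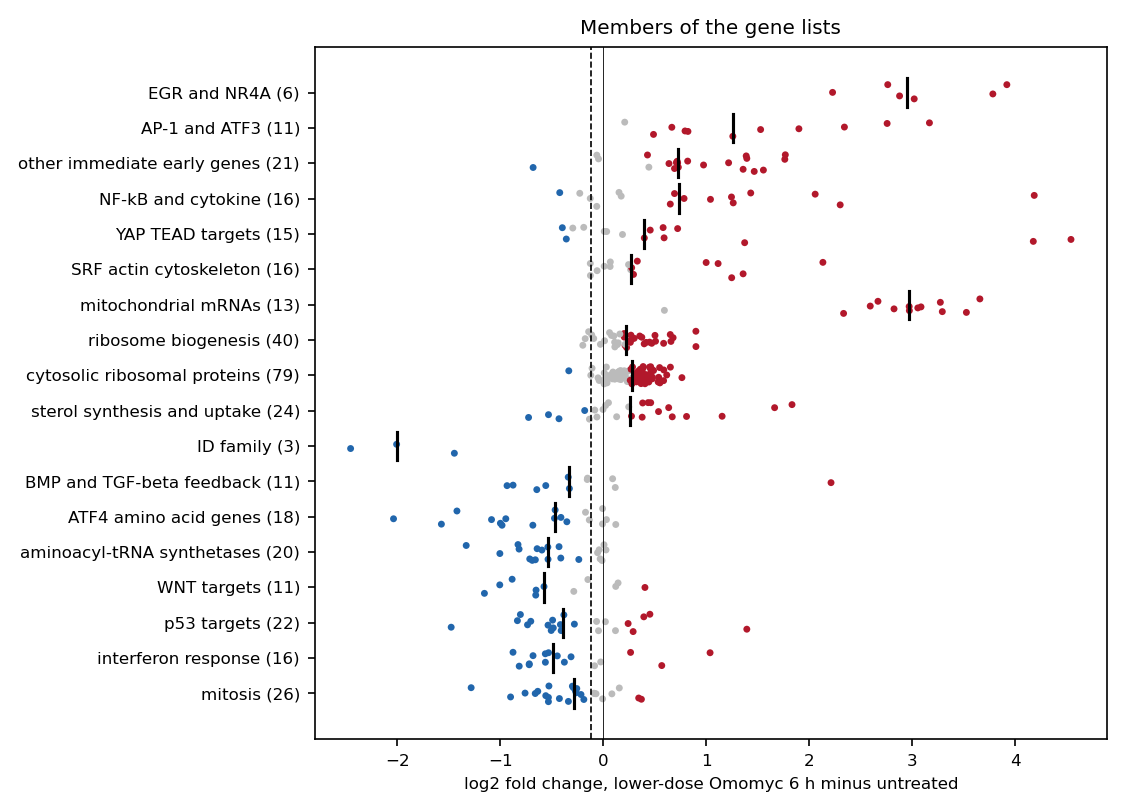
Log2 fold changes of the tested members of 18 gene lists, 1 point per gene, with list medians and a dashed line at the median of all genes. Members of the EGR and NR4A, AP-1 and mitochondrial lists lie to the higher side and the ID, amino acid and tRNA synthetase lists to the lower side, while the ribosomal protein, ribosome biogenesis, SRF and sterol lists have medians that turn negative with an equal sum.

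MYC was at 156, 154 and 159 RPKM in treated libraries and 115, 116 and 124 RPKM in untreated libraries. All treated values were above all untreated values, and the log2 fold change was 0.40 (SE 0.0595, limma adjusted p = 0.000646). With an equal sum the value was 0.07, with an adjusted p of 0.605, and this was the one setting in which MYC was not past the threshold. MAX, its partner, was at 17.1, 20.3 and 16.7 RPKM against 15.1, 19.4 and 16.1 RPKM, with overlapping groups, a log2 fold change of 0.10 (limma adjusted p = 0.498) and a two-sided exact permutation p of 0.5, where 3 libraries against 3 cannot go below 0.1. Its value was -0.23 with an equal sum. Of the 12 measured members of the MYC and MAX network, 4 were higher and 6 lower, with a median of -0.12. With an equal sum, none of the 12 was higher and 6 were lower. Of the 4 MXD genes, which encode repressors, 3 were lower, with log2 fold changes of -1.38 for MXD3, -1.02 for MXD4 and -0.54 for MXI1, and MXD1 was higher, at 0.54. MNT, a repressor outside that family, had 0.56, and MYCL had -1.23. CD274, the immune checkpoint ligand PD-L1, was near the filter on low values, at 0.755, 0.920 and 0.817 RPKM against 1.13, 0.605 and 0.617 RPKM, with overlapping groups, a log2 fold change of 0.07 and a limma adjusted p of 0.777. It was -0.14 with an equal sum and -0.02 without untreated replicate 2 or replicate 3.

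Ribosome biogenesis genes, a class that MYC is known to activate, were higher in 24 of 40 cases and lower in none, with a median of 0.22. With an equal sum, 5 were higher and 8 lower, with a median of -0.12, so the direction of the list depended on scaling. With an equal sum over nuclear protein-coding genes only, 23 were higher and 0 lower, with a median of 0.20. After median-ratio scaling the counts were 32 and 0. RRP12, GAR1, NOP16 and LYAR had log2 fold changes of 0.90, 0.90, 0.68 and 0.66. Cytosolic ribosomal protein genes were higher in 42 of 79 cases, with RPL3 lower, and had a median of 0.28, but with an equal sum 3 were higher and 16 lower, with a median of -0.06. The count of higher ribosomal protein genes was 21 without untreated replicate 1, 18 after quantile normalization, 18 with all 5 HCT116 groups in the fit and 16 with no filter. RPL27 had the highest value, 0.76. Of 23 translation factors, 6 were higher and 6 lower, but 9 and 2 after median-ratio scaling and 0 and 13 with an equal sum. Of the 8 genes of the CCT chaperonin none passed in either direction, but 2 were higher after median-ratio scaling and 7 were lower with an equal sum. Nucleotide synthesis genes were higher in 4 and lower in 8 of 21 cases, but in 7 and 2 after median-ratio scaling and in 0 and 14 with an equal sum. Over all genes, as deposited, 15.5% were higher and 31.8% lower.

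Sterol genes were higher in 12 and lower in 4 of 24 cases, with a median of 0.26 that was -0.07, with 5 higher and 10 lower, with an equal sum. INSIG1, which retains the sterol sensor in the ER, was at 48.7, 46.7 and 50.5 RPKM against 12.7, 14.7 and 12.5 RPKM, a log2 fold change of 1.83 (SE 0.0780, limma adjusted p = 1.37e-06). The synthase HMGCS1 rose by 1.15, and SREBF2, the factor that drives the pathway, had -0.73. LSS, TM7SF2 and FDPS were lower. The promoter of FBXW8, which had a log2 fold change of -0.67, also holds an E box, CACGTG. INSIG1 is shown with its E box in capitals, at chr7:155297758-155297877 on the plus strand of GRCh38.p14 (RefSeq), from 120 bases before the start to the last base before it.
INSIG1: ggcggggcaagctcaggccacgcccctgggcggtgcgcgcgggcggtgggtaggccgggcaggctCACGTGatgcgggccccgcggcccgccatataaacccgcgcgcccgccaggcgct

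Genes of mitosis were lower in 18 and higher in 2 of 26 cases, with a median of -0.28, and after median-ratio scaling in 11 and 4. TOP2A, which untangles DNA at mitosis, was at 36.2, 30.3 and 31.5 RPKM against 81.1, 78.5 and 80.5 RPKM, a log2 fold change of -1.28. The spindle checkpoint kinase TTK had -0.90 and CDK1 had -0.76, whereas CCNB1 and CDC20 were higher. Of 32 DNA replication genes, 11 were lower, a share near the 31.8% of all genes, and CDC6 was higher. After median-ratio scaling 5 were higher and 5 lower, and with an equal sum none was higher and 25 were lower. G1 cyclins and CDK inhibitors were lower in 11 and higher in 3 of 17 cases, with 6 lower without untreated replicate 3. They were lower in 6 and higher in 4 cases after median-ratio scaling, and in 12 and 0 with an equal sum. CDKN1C, an inhibitor of G1 kinases, had -1.45. Targets of p53 were lower in 13 and higher in 5 of 22 cases, with a median of -0.40. TP53INP1 had -1.48 and BBC3 -0.81, PLK3 had 1.39, and MDM2 had -0.07 and was not past the threshold. MDM2 passed in opposite directions under other settings, lower with an equal sum (-0.40) and higher with the length trend removed (0.21), and was at 0.07 after median-ratio scaling and 0.10 with the GC trend removed.

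Of 11 WNT target genes, 6 were lower and MYC was higher, with a median of -0.58. NOTUM, a secreted inhibitor of WNT proteins, had a log2 fold change of -1.16, AXIN2 -0.89 and RNF43 -0.65. Interferon response genes were lower in 11 and higher in 3 of 16 cases, with a median of -0.49. STAT2, IRF9 and DDX58 had -0.88, -0.72 and -0.72, and OASL was the opposite, at 1.04. In the list of clock and PAR bZIP genes, 6 were higher and 4 lower, and with an equal sum 4 and 6. DBP, a circadian transcription factor, was at 4.03, 4.99 and 4.66 RPKM against 14.6, 14.6 and 16.4 RPKM, a log2 fold change of -1.64 (SE 0.0982, limma adjusted p = 8.65e-06), and BHLHE40, a repressor of the clock, rose by 1.82. Among the 12 largest falls were also DDIT4, an inhibitor of mTORC1, at -1.79, KLHL24 at -1.73, the mitochondrial gluconeogenic enzyme PCK2 at -1.64 and the cyclin gene CCNG2 at -1.60.

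Mitochondrial mRNAs, encoded in the mitochondrial genome, were higher in 12 of 13 cases, with a median of 2.97. MT-ND2, a subunit of complex I, was at 359, 570.4 and 879.9 RPKM in treated libraries and 42.8, 55.8 and 36.4 RPKM in untreated ones, a log2 fold change of 3.66 (SE 0.275, limma adjusted p = 2.79e-05). MT-ND6, which is encoded on the other strand from the remaining 12, was at 0.59 with a limma adjusted p of 0.102. It passed the threshold without untreated replicate 2, at 0.93, and with the GC trend removed, at 0.76 (limma adjusted p = 0.0496). The snRNA gene RNU1-1, the RNA of the U1 splicing particle, was at 157, 372 and 559.9 RPKM against 77.1, 7.65 and 17.0 RPKM, with a log2 fold change of 3.85. Untreated replicate 1 stood above the other two, and the value was 4.75 without it and 3.12 without untreated replicate 2. The small nucleolar RNA SNORD33, which lies inside RPL13A, was at 6.40, 23.2 and 16.2 RPKM in treated libraries and listed at 0 in the 3 untreated libraries, so no fold is given. SNORA66, inside RPL5, was at 13.97, 38.5 and 24.3 RPKM against 0.578, 0.868 and 0 RPKM. Small RNA genes often lie inside other genes or have near-identical copies, and their values are uncertain because the counting could divide reads among them. Among genes of these classes, 28 of 70 snoRNA, 23 of 44 snRNA and 22 of 41 misc_RNA genes were called higher. These libraries also differ in the share of small RNA and mitochondrial genes given above, whose part in these results was not tested.

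Stress and housekeeping lists had both directions, beside 15.5% of all genes higher and 31.8% lower. ER chaperone and unfolded protein response genes were higher in 8 and lower in 2 of 20 cases, and heat shock genes in 7 and 2 of 17. CALR, an ER lectin chaperone, had 0.75, and HSPE1, the mitochondrial cochaperonin, 0.76. NRF2 antioxidant genes were higher in 8 and lower in 6 of 18 cases. Hypoxia genes were higher in 3 and lower in 7 of 15, among which ANGPTL4 had 1.12 and BNIP3L -1.06. Of 16 glycolysis genes, 7 were lower and 1, HK2, was higher, at 0.66, beside HK1 at -0.78. Endocytosis and heparan sulfate genes, listed because Omomyc enters cells, were higher in 9 and lower in 2 of 16 cases, with SDC4, a heparan sulfate proteoglycan, at 1.15 and the caveolin gene CAV2 at 1.01. With an equal sum these lists had more members lower than higher: 3 higher and 5 lower for endocytosis, 4 and 6 for ER chaperones, 1 and 7 for heat shock, 0 and 8 for NRF2, 2 and 10 for hypoxia and 0 and 13 for glycolysis, where HK2 was not past the threshold.

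Motifs were counted in RefSeq promoters of 300 bases, 250 of them before the start, which were found for 10464 of the 14550 genes tested. A gene with several promoters was counted once, as holding a motif if any of its promoters did. The E box CACGTG was in 12.6% of the promoters of tested genes, 15% of those called higher and 11% of those called lower. Over these called genes the other motifs were in 5.94% of higher and 4.26% of lower promoters for AP-1 sites, 1.72 and 1.45% for CArG boxes, 9.01 and 9.08% for NF-kB sites, 14.7 and 15.4% for TEAD sites and 1.65 and 2.98% for ATF4 sites. Genes with changes of at least 2-fold are a small part of these, and the E box was in 12.9% of the promoters that rose and 10.8% of those that fell by that much. AP-1 sites, TGACTCA or TGAGTCA on both strands, were in 4.75% of all tested promoters and in 15.8% of the 101 with at least a 2-fold rise, against 2.99% of the 167 with at least a 2-fold fall. CArG boxes were in 1.52% of all tested promoters, 7.92% of those with a 2-fold rise and 1.8% of those with a 2-fold fall, and NF-kB sites in 8.92, 18.8 and 6.59%. TEAD sites, GGAATG, were in 14.7, 22.8 and 14.4%, and ATF4 sites, TGATGNAA, in 2.58, 2.97 and 4.79%. Over all 35116 promoters of the table, the shares were 7.26% for the E box, 4.95% for AP-1, 1.29% for CArG, 5.91% for NF-kB, 14% for TEAD and 3.62% for ATF4. These count each promoter singly, so they are not on the same measure as the shares per gene above. Of 13 SRF and actin promoters, 8 had a CArG box, of 8 AP-1 and ATF3 promoters none had one, of 14 amino acid promoters 5 had an ATF4 site, of 16 tRNA synthetase promoters 7 had one, and of 32 ribosome biogenesis promoters 14 had an E box. Of the 8 SRF and actin genes with a CArG box, FHL2, SRF and TPM4 were higher and the others were not past the threshold. Of 11 YAP and TEAD promoters, 6 had a TEAD site. AMOTL2, AXL and CTGF of these were higher, PTPN14 was lower, and AJUBA and LATS2 were not past the threshold. All of these are counts of letters and were not tested.

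The lower dose was then compared with 10 μM Omomyc, also at 6 h. No gene differed between the doses at an adjusted p under 0.05 by limma, or 0% of 14601 genes, while 1242 genes had an unadjusted p under 0.05. A p that misses the threshold does not show that the doses act alike, so intervals are given. CYR61 was at 119 ± 33.6 RPKM (SD, n = 3) at the lower dose and 119.9 ± 26.1 at 10 μM, a log2 difference (lower dose minus 10 μM) of -0.03 (95% interval -0.57 to 0.51). ID3 differed by -0.01 (-0.27 to 0.25) and ASNS by 0.23 (-0.18 to 0.64). EGR2 was at 7.70 ± 1.11 against 3.60 ± 0.826 RPKM, a difference of 1.01 (0.59 to 1.42), and NR4A1 differed by 0.72 (0.25 to 1.19). The 10 μM library of replicate 3 stood apart, with 54.0% of its sum in small RNA genes. Without it, 93 genes passed the threshold, 33 of them higher at the lower dose, and those named here were ATF3, CXCL8 and NR4A3.

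Over time at the lower dose, 6026 of 14775 genes (40.8%) differed between 6 and 24 h by limma, 1456 of them higher at 6 h. The tag for time in the 24 h libraries' labels differs from their titles, and 24 h was taken from the titles and the study's methods. CYR61 was at 119 ± 33.6 RPKM at 6 h and 2.92 ± 0.533 RPKM at 24 h, beside 4.49 ± 0.0932 RPKM in untreated cells, a log2 difference of 5.10 (6 h minus 24 h). CTGF and NR4A1 differed by 4.45 and 3.81, and EGR2 by 2.61. At 24 h CYR61 was lower than in untreated cells, with a log2 fold change of -0.56 (limma adjusted p = 0.0107). ID1 was at 49.4 ± 9.62 RPKM at 6 h and 112 ± 8.95 at 24 h, a difference of -1.19, with both below the untreated level of 269.6 ± 5.14 RPKM. SAT1 and ASNS, lower at both times, differed by -0.88 and -0.59. DBP was at 4.56 ± 0.487 RPKM at 6 h and 22.0 ± 3.78 at 24 h, a difference of -2.14, the largest on that side, followed by PPFIA4 at -1.80 and GSDMB at -1.69. ID3 at -0.23 (limma adjusted p = 0.0745) and CHAC1 at 0.01 (adjusted p = 0.982) did not pass. Both times were compared with the same untreated libraries, so their changes are given only side by side. The split between the times depended on scaling, with 52.6% of called genes higher at 6 h after median-ratio scaling, 46.5% after quantile normalization and 7.63% of 7547 with an equal sum.

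**Figure D4:**
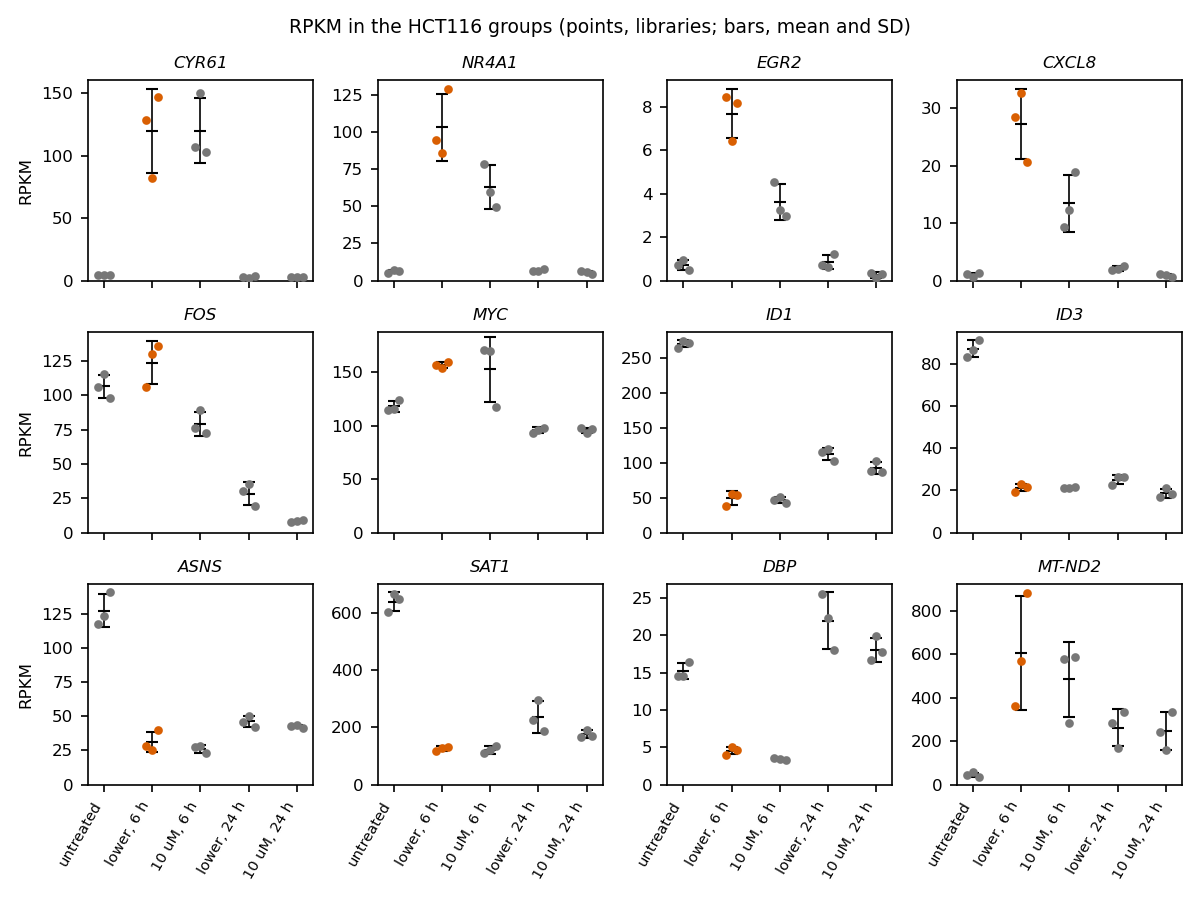
RPKM of 12 genes in the 5 HCT116 groups (linear axes from 0, points for libraries, bars for mean and SD over 3 libraries): untreated, the lower dose and 10 μM at 6 h, and the lower dose and 10 μM at 24 h. CYR61, NR4A1, EGR2 and CXCL8 are higher at 6 h for both doses than at 24 h, and ID1, ASNS and SAT1 are lower than untreated at both times.

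Ramos cells, a human Burkitt lymphoma line, were untreated or given 2.5 μM Omomyc for 6 h, and the difference in response between the lines was tested as an interaction. It was past the threshold by limma for 6317 of 15562 genes (40.6%), 1895 of them (30.0%) with a response higher in HCT116 cells. That share was 47.3% after median-ratio scaling, 45.1% after quantile normalization and 5.46% of 9816 genes with an equal sum. The study's methods do not describe a delivery reagent for Ramos, so line and delivery cannot be told apart. EGR2 went from 32.7, 30.1 and 30.5 RPKM in the untreated Ramos libraries to 5.29, 5.23 and 4.80 RPKM after treatment, which is the direction opposite to HCT116, and the difference in response was 5.26 (SE 0.184, limma adjusted p = 2.22e-08). NR4A3 and NR4A1 differed by 4.97 and 4.56. On the lower side were ID1 at -2.65, MXD3 at -2.35 and ID3 at -2.13. In Ramos, ID3 was at 115 ± 3.02 RPKM untreated and 125 ± 3.27 RPKM treated. ASNS differed by -1.83 and SAT1 by -1.85. MYC did not differ in response past the threshold, at 0.05 (limma adjusted p = 0.626), and was at 140.0 ± 11.5 RPKM untreated and 178 ± 4.32 RPKM treated in Ramos. CYR61 and CTGF were listed at 0 in the Ramos libraries, and CXCL8 and THBS1 were near 0, so no difference is given for them. CD274, near the filter in HCT116, was at 9.15 ± 0.884 RPKM in untreated and 2.15 ± 0.771 RPKM in treated Ramos cells, and the difference in response was 1.98.

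**Figure D5:**
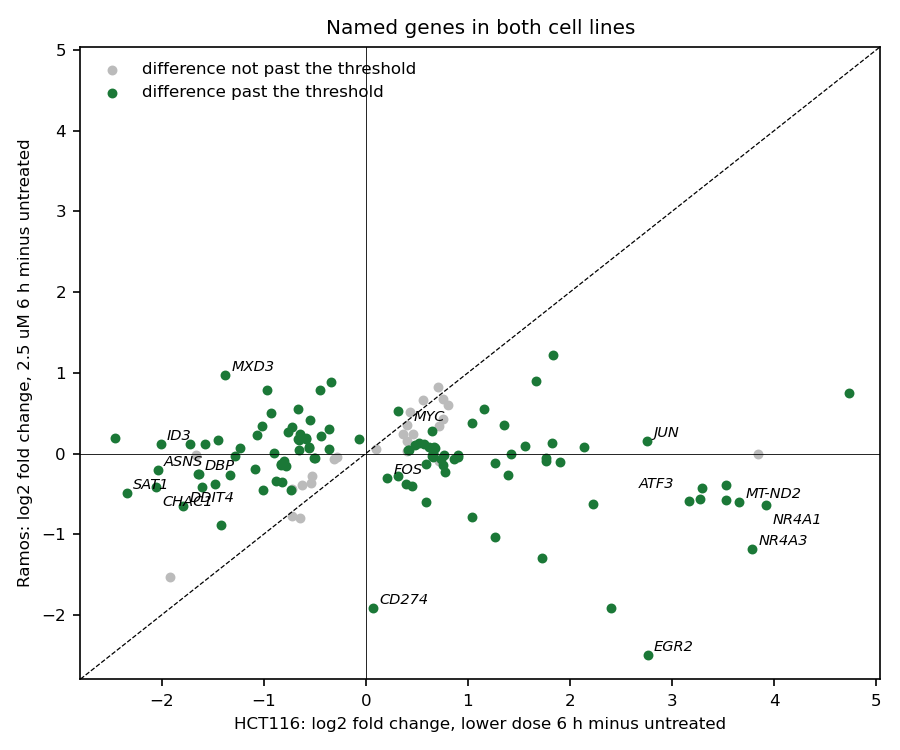
Log2 fold change in Ramos (2.5 μM Omomyc, 6 h) against that in HCT116 (lower dose, 6 h) for the 135 named genes tested in both lines, with genes whose difference in response passed the threshold coloured. Of 110 such genes, 57 have a higher response in HCT116 and 53 a lower one, with EGR2, NR4A1 and NR4A3 positive in HCT116 and negative in Ramos. Most of the 135 genes were chosen for changes past the threshold in HCT116, so the count of 110 is partly set by that choice. Over all genes tested, 40.6% passed.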

How the data were processed

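RNA-Seq of 30 libraries from 2 human cell lines was available, with 3 libraries per group taken from the labels, and 15 libraries in 5 groups were of HCT116 cells. The deposited values are RPKM, which the authors gave for 57992 genes in 30 columns, and 0 columns could not be assigned to a library. The submitters' processing notes name RSEM, and the aligner, genome build and versions are not given in the sources used here. RPKM values were fractional, so reads could not be recovered and depth is unknown. Comparison columns of the supplementary tables were not used. Symbols were joined by Ensembl identifier from GENCODE 29 (57388 genes matched, 604 did not).

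Limma 3.58.1 (R 4.3.3; eBayes with a trend) was run on log2 values after a pseudocount of 0.5, a scale that understates changes of low genes. Genes averaging 0.5 RPKM or more entered, and the threshold was 0.05 after Benjamini-Hochberg adjustment. Summaries used Python 3.11.15, pandas 2.3.3 and numpy 2.4.6, and plots matplotlib 3.10.9. The procedure was tested on simulated data. The genes, 43 gene lists and tests were chosen with earlier results of these data known.

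Named genes were MYC, MAX, ASNS, SAT1, ID3, EGR2 and CD274, the 12 largest rises and 12 largest falls with a symbol, a mean RPKM of at least 2 and no overlap, up to 4 members per list with the largest changes past the threshold, members that define a list, and the 3 largest differences in each direction of the other comparisons. Other list members named to complete a count, and IER5, MXI1, CDH1 and the promoters shown, were chosen after their values were seen. Some genes that this rule names are not reported here.

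Settings were varied by taking a pseudocount of 0.1 or 1, by dropping the filter or raising it to 2 RPKM, and by median-ratio scaling, an equal sum over all or over nuclear protein-coding genes, quantile normalization, the replicate block, leaving out each library, no trend, all 5 HCT116 groups, removal of a length or GC trend (lowess, span 0.3), protein-coding genes only, an adjusted p under 0.01 and a 2-fold minimum change. An equal sum over nuclear genes other than small RNAs, and fits of the other groups against untreated cells, were added after seeing the data.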

Additional observations from a re-analysis of the deposited data

Results flagged for a closer look

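The comparison of 6 h with 24 h at the lower dose gave 6026 genes past the threshold by the limma test of the difference itself. Among the genes named, the difference (6 h minus 24 h, log2 scale) was 5.10 for CYR61, 4.45 for CTGF, 3.81 for NR4A1, 3.65 for NR4A3, 3.52 for THBS1, 3.40 for CXCL8, 2.61 for EGR2, 1.16 for MT-ND2 and 0.71 for MYC, all higher at 6 h. Lower at 6 h were DBP at -2.14, DDIT4 at -1.45, KLHL24 at -1.24, CCNG2 at -1.21, ID1 at -1.19, SAT1 at -0.88, ASNS at -0.59, CD274 at -0.45 and PCK2 at -0.41.

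A test of whether the 6 h response differed between HCT116 and Ramos gave 6317 genes past the threshold. The response was higher in HCT116 cells for EGR2 by 5.26, for NR4A3 by 4.97, for NR4A1 by 4.56, for MT-ND2 by 4.26 and for CD274 by 1.98. In the other direction were ID1 at -2.65, ID3 at -2.13, SAT1 at -1.85, KLHL24 at -1.84, ASNS at -1.83, CHAC1 at -1.64, PCK2 at -1.39, DBP at -1.38, CCNG2 at -1.18 and DDIT4 at -1.14.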

How the results depend on the processing

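Of 174 named genes, 169 were past the threshold and 137 were past it in every setting. Most of them were chosen for being past the threshold, so these counts are largely set by that choice. Over all genes, 47.3% were past it. The number of genes called in the comparison with untreated cells was 4421 at an adjusted p under 0.01 and 482 with a change of at least 1 on the log2 scale in either direction, and it ranged from 5238 to 6793 when 1 library was left out. Between the doses at 6 h, 2 genes were called with the replicate block and 0 to 93 when 1 library was left out. The interaction with Ramos cells was called for 9816 genes with an equal sum and for 5466 to 6310 when 1 library was left out, and the comparison with 24 h for 4185 to 5650. Changes that reversed with an equal sum were MAX at -0.23, CD274 at -0.14, ODC1 at -0.021, NECTIN2 at -0.039, CITED2 at -0.0048 and FOS at -0.13. MDM2 reversed to 0.066 after median-ratio scaling, 0.21 with the length trend removed and 0.10 with the GC trend removed, and CD274, which ranged from -0.024 to 0.258 when 1 library was left out, to -0.024 without untreated replicate 2 and -0.016 without untreated replicate 3. The causes of these reversals were not tested. Same-numbered libraries of the treated and untreated groups did not deviate together (correlations of -0.0213, -0.0495 and -0.11), and the replicate block called 6233 genes here, 6070 between times and 5502 for the interaction. Depth is unknown, so its limits could not be set.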

Other observations

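Genes of cell death and of polyamine, metal and lysosome function moved in both directions at 6 h. Over all genes, 15.5% were higher and 31.8% lower. Of 14 BCL2 family genes measured, 7 were higher and 3 lower, with a median log2 fold change of 0.14 that was -0.20, with 1 higher and 7 lower, when libraries were set to an equal sum. PMAIP1 (NOXA), a BH3-only promoter of apoptosis, was at 51.9, 54.5 and 51.9 RPKM in treated libraries and 27.2, 29.2 and 29.8 RPKM in untreated libraries, a change of 0.87, while BBC3 (PUMA), of the same class, had -0.81. In polyamine metabolism, 2 of 10 genes were higher and 2 lower, or 1 and 5 with an equal sum: SRM, spermidine synthase, rose by 0.75, and PAOX, which oxidizes acetylated polyamines, had -0.91 beside the fall of SAT1.

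Of 23 lysosome and autophagy genes, 5 were higher and 5 lower, and with an equal sum 2 were higher and 14 lower. The metallothionein genes MT1E and MT2A were higher among 5 measured genes of their list, MT2A not with an equal sum. Of 5 measured immune checkpoint ligand genes, PVR and NECTIN2 were higher, neither of them with an equal sum and NECTIN2 also not without treated replicate 1 or 3 or untreated replicate 1 or 3, and of 15 chromatin and Pol II regulators 4 were higher and 1, CDK9, was lower, or 2 and 8 with an equal sum. KDM6B, a histone demethylase, and ELL2, an elongation factor, rose by 0.72 and 0.66.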
